A study of Mus musculus with 12 samples.

Results

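The T cell receptor (TCR) signal reporter genes are 9 genes whose transcript level is used to read how strongly a T cell has been signalled through its antigen receptor, and they were taken by symbol from a fixed list. The list holds 3 surface receptors (Cd5, Cd6 and Cd69), 3 orphan nuclear receptors (Nr4a1, Nr4a2 and Nr4a3) and 3 zinc finger factors (Egr1, Egr2 and Egr3). All 9 were present among the 12809 genes of the expression table, and all 9 were among the 11595 genes that passed the filter of at least 1 CPM in at least 3 libraries.

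A resting T cell is kept in continual low-level contact with self-peptides on MHC molecules, and the TCR signal from that contact sets the tonic level of several of these genes. CD5 and CD6 are related scavenger-receptor proteins that dampen TCR signals, and the amount of CD5 on a naive T cell is commonly read as a record of its self-reactivity. The study that produced these libraries measured CD5 protein. It concluded that CD5 follows how long TCR signalling lasts during selection in the thymus, and not how strong it is. Only transcript levels are given here. The EGR and NR4A genes are immediate early genes: calcium, ERK and protein kinase signals switch on their transcription within minutes, and their products feed back on activation, EGR2 and EGR3 as brakes and NUR77, the product of Nr4a1, as the basis of widely used reporter mice. CD69 appears on the surface within hours of activation and holds the cell in the lymph node by removing the sphingosine phosphate receptor S1PR1.

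The study asked whether helper or cytotoxic fate follows from the Cd4 and Cd8a gene loci or from the coreceptor proteins they encode. C57BL/6 (B6) mice carried the usual loci, whereas FlipFlop mice carried altered loci on chromosome 6 in which Cd8a encodes CD4 protein, an allele made in 129-derived stem cells, and Cd4 encodes CD8αβ.1 protein, an allele made in B6 stem cells. Lymph node T cells carrying CD4 or CD8 were isolated by sorting from female mice, at 10 weeks of age in B6 and 14 weeks in FlipFlop, and RNA-seq was done on 3 libraries for each of the 4 groups, named by strain and coreceptor protein. Strain and age changed together, so they cannot be told apart. The sources do not say that the 3 libraries of a group came from separate mice, so p-values measure only the spread between these libraries, which may be technical.

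The table held between 26600000 and 33100000 reads per library on the listed genes, so that 3 reads were worth 0.0857 to 0.120 CPM. Levels are read counts scaled to a common library size and by the TMM factor, written as CPM and given as mean ± SD (n = 3) unless each library is named. Differences between groups are on the log2(CPM + 0.5) scale with their standard error, from limma fitted to all 12 libraries, and a gene was called at a Benjamini-Hochberg adjusted p under 0.05 over the 11595 genes tested. Zbtb7b, which encodes the helper-lineage factor ThPOK, was at 196 CPM for B6 CD4 and 168 CPM for FlipFlop CD8 cells but at 2.29 CPM for FlipFlop CD4 and 1.55 CPM for B6 CD8 cells, and Runx3, the cytotoxic-lineage factor, was at 63.9 and 57.2 CPM against 138 and 111 CPM in the same order. B6 CD4 and FlipFlop CD8 cells are therefore called the helper-lineage groups here, and the other two the cytotoxic-lineage groups. Cd4 was at 1022 CPM for B6 CD4, 670 CPM for FlipFlop CD4, 42.2 CPM for FlipFlop CD8 and 1.46 CPM for B6 CD8 cells, and Cd8a was at 1489 CPM for B6 CD8 and 145 CPM for FlipFlop CD8 cells and below 1 CPM in both CD4 groups. The T cell markers Cd3d (517 to 749 CPM) and Cd3e (345 to 400 CPM) were high in all 4 groups.

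Of the 9 genes, 6 were higher in CD4 than in CD8 cells of B6 mice and the same 6 were lower in CD4 than in CD8 cells of FlipFlop mice: Cd5, Cd6, Nr4a1, Nr4a3, Egr1 and Egr2. Among all genes tested, 14.6% were called higher in B6 CD4 than in B6 CD8 cells, and 16% were called lower in FlipFlop CD4 than in FlipFlop CD8 cells. The CD4 and CD8 libraries of B6 did not overlap for the same 6 genes (20.6% of all genes tested were as well separated in that direction), and those of FlipFlop did not overlap for these 6 and Egr3 (21.6%). In both strains these 6 genes were thus higher in the helper-lineage cells, whichever coreceptor protein the cells carried. Egr3 had the same order but was called in neither strain alone, and Cd69 and Nr4a2 were called in neither. For 5 genes (Cd5, Cd6, Nr4a1, Egr1 and Egr2) all 6 helper-lineage libraries lay above all 6 cytotoxic-lineage libraries, as for 9.9% of all genes tested. Foxp3, which marks regulatory T cells, was higher in the same groups (lineage effect 6.64, adjusted p = 7.03e-12), and the part of these cells in the reporter differences was not tested. In bulk samples such as these, fewer cells of a type and less RNA per cell cannot be told apart.

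**Figure D1:**
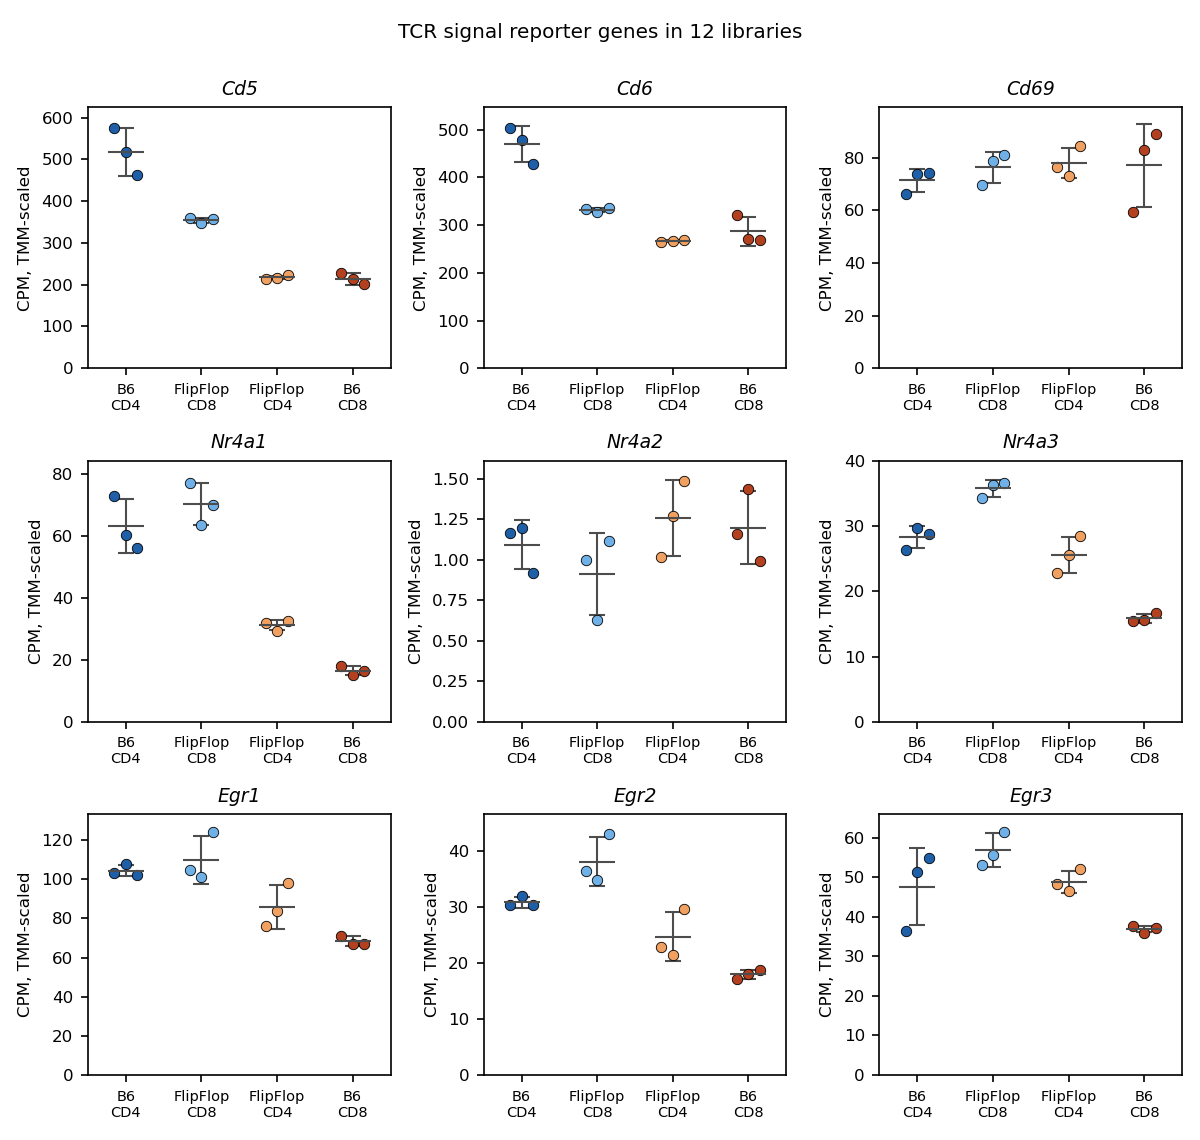
Level of each reporter gene in the 12 libraries, in TMM-scaled CPM from 0 (points, replicates 1 to 3 from left to right; bars, mean ± SD of 3 libraries). The helper-lineage groups B6 CD4 and FlipFlop CD8 lie to the left, and for Cd5, Cd6, Nr4a1, Egr1 and Egr2 every one of their libraries lies above every cytotoxic-lineage library.

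**Figure D2:**
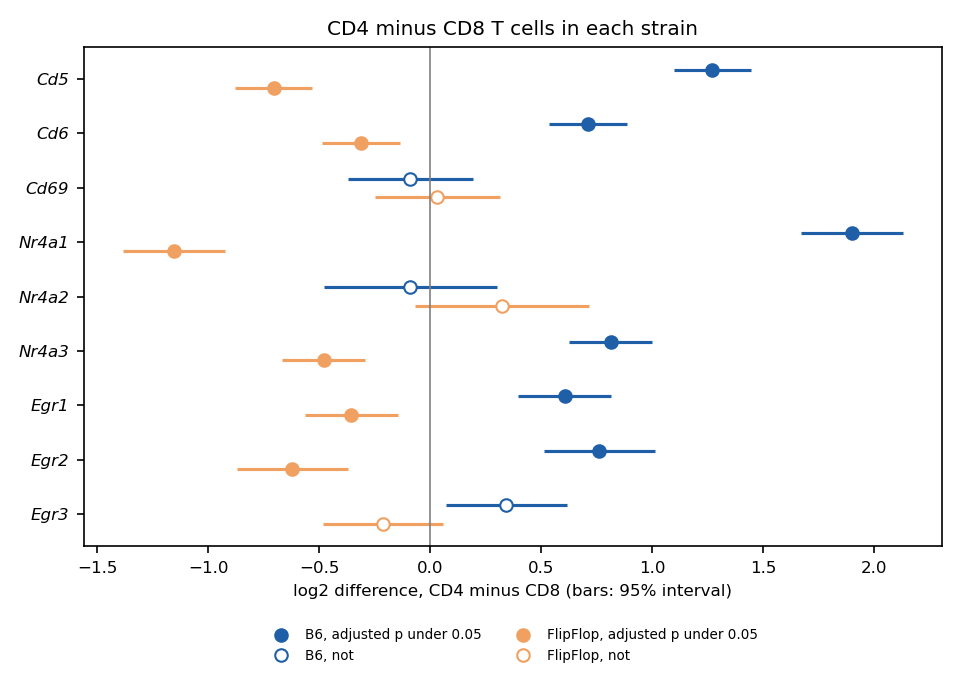
The CD4 minus CD8 difference of each gene on the log2 scale with its 95% interval, in B6 (blue) and FlipFlop (orange) cells, filled where the adjusted p was under 0.05. Nr4a1 spans the widest range, from 1.90 in B6 to -1.16 in FlipFlop cells, and Cd69 and Nr4a2 lie near 0 in B6.

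Cd5 (ENSMUSG00000024669, chr19:10717116-10739002, minus strand, GRCm38) was among the more abundant of the 9 transcripts. Its level in the 3 B6 CD4 libraries was 576, 517 and 462 CPM, and in FlipFlop CD8 it was 359, 348 and 357 CPM. In the cytotoxic-lineage groups it was 214, 215 and 223 CPM for FlipFlop CD4 and 228, 213 and 201 CPM for B6 CD8. Every helper-lineage library lay above every cytotoxic-lineage library, and the B6 CD4 libraries lay above the FlipFlop CD8 libraries. The B6 CD4 mean was 2.42 times the B6 CD8 mean (log2 difference 1.27 ± 0.08 SE, adjusted p = 2.13e-07), and in FlipFlop the CD4 mean was 0.613 times the CD8 mean (log2 difference -0.71 ± 0.08, adjusted p = 2.52e-05).

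The 2 helper-lineage groups differed in Cd5. FlipFlop CD8 cells were lower than B6 CD4 cells (log2 difference -0.54, 95% interval -0.72 to -0.37, adjusted p = 0.000687), with no overlap between libraries. The cytotoxic-lineage groups were close, with a FlipFlop CD4 minus B6 CD8 difference of 0.02 and a 95% interval of -0.15 to 0.20 (adjusted p = 0.89). The order of levels was therefore B6 CD4, FlipFlop CD8, and then the cytotoxic-lineage pair, whose neighbours did not differ beyond their spread.

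Cd6 lies beside Cd5 (ENSMUSG00000024670, chr19:10789341-10830058, minus strand) and encodes the receptor for ALCAM. It was at 503, 478 and 428 CPM for B6 CD4, at 333, 327 and 336 CPM for FlipFlop CD8, at 322, 270 and 270 CPM for B6 CD8 and at 266, 267 and 269 CPM for FlipFlop CD4. The order at the top was that of Cd5, while B6 CD8 replicate 1 came close to the FlipFlop CD8 libraries. The CD4 minus CD8 difference was 0.71 ± 0.08 for B6 (adjusted p = 3.36e-05) and -0.31 ± 0.08 in FlipFlop (adjusted p = 0.0106). FlipFlop CD8 cells were lower than B6 CD4 cells (-0.50 ± 0.08, adjusted p = 0.00124), and FlipFlop CD4 cells did not differ from B6 CD8 cells by more than the spread (-0.10, 95% interval -0.28 to 0.08, adjusted p = 0.50).

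FlipFlop CD8 cells were also called higher than B6 CD8 cells in Cd6 (0.21 ± 0.08, adjusted p = 0.0488). That call was lost in 9 of 12 fits that each left out 1 library, with an adjusted p of up to 0.172, and was kept only without B6 CD4 replicate 1, B6 CD4 replicate 3 or B6 CD8 replicate 1. It was also lost among genes with a mean of at least 5 CPM (adjusted p = 0.0530) and without the mean-variance trend (adjusted p = 0.0655). Within a library, Cd5 stood on average at 1.10 ± 0.0377 times Cd6 in B6 CD4 and at 1.07 ± 0.00708 times in FlipFlop CD8, against 0.814 ± 0.0132 times in FlipFlop CD4 and 0.747 ± 0.0406 times in B6 CD8 (ratios of CPM, mean ± SD, n = 3). The ratio thus also separated the helper-lineage from the cytotoxic-lineage libraries.

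Cd69 (ENSMUSG00000030156, chr6:129267325-129275436, minus strand) lies on the chromosome of the altered loci and showed no group difference beyond its spread. It was at 66.4, 73.8 and 74.2 CPM for B6 CD4, at 59.3, 83.1 and 88.9 CPM for B6 CD8, at 76.7, 73.0 and 84.4 CPM for FlipFlop CD4 and at 69.6, 78.7 and 80.9 CPM for FlipFlop CD8. The groups overlapped, and B6 CD8 replicate 1 was the lowest of all libraries. The CD4 minus CD8 difference was -0.09 for B6 (95% interval -0.37 to 0.19, adjusted p = 0.676) and 0.03 in FlipFlop (95% interval -0.25 to 0.31, adjusted p = 0.889), so a change of the size seen for Cd5 lay outside both intervals.

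The NR4A promoters are shown because the 3 genes of the family parted in these cells, the lineages being called different in Nr4a1 and Nr4a3 and not in Nr4a2, and the Egr2 promoter is shown for comparison. Windows were taken from RefSeq (GRCm38.p6) for 5 of the 9 genes, and the bases before the start site are written 5′ to 3′ on the gene's strand, up to the first annotated exon. Capitals mark the core of the cyclic AMP response element (TGACG, or CGTCA on the other strand), the site of CREB and ATF factors, and in Egr2 also a CArG box, the site of serum response factor. The full element TGACGTCA, the AP-1 site TGANTCA, the EGR site GCGTGGGCG and the NR4A site AAAGGTCA were searched on both strands as well and found in none of the 4 windows.
Nr4a1, chr15:101266596-101266845, plus strand, inside the gene before an inner start site: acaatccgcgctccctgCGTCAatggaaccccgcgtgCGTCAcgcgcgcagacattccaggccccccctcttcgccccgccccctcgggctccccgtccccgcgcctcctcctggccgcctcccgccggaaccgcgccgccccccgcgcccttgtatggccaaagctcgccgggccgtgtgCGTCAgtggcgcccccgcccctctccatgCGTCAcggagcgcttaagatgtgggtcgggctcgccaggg
Nr4a2, chr2:57124004-57124253, minus strand, before the outermost start: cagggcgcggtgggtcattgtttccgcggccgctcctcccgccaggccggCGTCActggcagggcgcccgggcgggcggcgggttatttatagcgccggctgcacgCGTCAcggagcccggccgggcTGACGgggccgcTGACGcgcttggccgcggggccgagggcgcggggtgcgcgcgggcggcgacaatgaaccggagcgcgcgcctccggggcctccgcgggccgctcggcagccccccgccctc
Nr4a3, chr4:48045055-48045152, plus strand, before the outermost exon: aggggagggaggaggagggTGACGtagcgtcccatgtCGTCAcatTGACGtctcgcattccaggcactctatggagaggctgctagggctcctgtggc
Egr2, chr10:67537619-67537868, plus strand, before the start at 67537869: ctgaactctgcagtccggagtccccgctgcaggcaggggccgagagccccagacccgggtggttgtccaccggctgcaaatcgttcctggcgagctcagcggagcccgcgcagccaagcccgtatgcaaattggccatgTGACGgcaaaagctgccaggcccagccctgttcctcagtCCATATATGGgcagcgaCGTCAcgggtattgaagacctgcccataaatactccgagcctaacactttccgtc
Each NR4A window held 4 copies of the core within 250 bases of its start site, the fourth of Nr4a3 lying beyond the stretch shown. Of 32851 RefSeq windows of the same length, 17.8% held at least 1 copy and 0.137% held at least 4. Egr2 had 5 windows, of which the one shown and those at the start sites 67537870 and 67537930 overlap. The window at 67535499 held none of the motifs searched, and that at 67537566 held a CArG box and no core. The Egr2 window shown held 2 copies, where 3.90% of windows held at least 2, and a CArG box 72 bases before the start, a motif held by 1.47% of windows. The Cd5 window held none of the motifs searched, and Cd6, Cd69, Egr1 and Egr3 had no window. A match is a string of letters and not a measured binding site, and Nr4a2, which was not called, held as many copies as the NR4A genes that were.

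Nr4a1 (ENSMUSG00000023034, chr15:101254269-101274795, plus strand) encodes NUR77 and had the largest lineage difference of the 9 genes. Its level was 72.9, 60.2 and 56.2 CPM for B6 CD4 and 77.3, 63.7 and 70.1 CPM for FlipFlop CD8. In the cytotoxic-lineage groups it was 31.8, 29.3 and 32.6 CPM for FlipFlop CD4 and 17.9, 15.1 and 16.4 CPM for B6 CD8. The helper-lineage libraries overlapped each other and lay above all others, and the FlipFlop CD4 libraries lay between them and B6 CD8. The B6 CD4 mean was 3.83 times the B6 CD8 mean (log2 difference 1.90 ± 0.11, adjusted p = 7.80e-08), and the FlipFlop CD4 mean was 0.444 times the FlipFlop CD8 mean (-1.16 ± 0.11, adjusted p = 4.13e-06).

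The helper-lineage groups did not differ in Nr4a1 beyond their spread (FlipFlop CD8 minus B6 CD4 0.16, 95% interval -0.07 to 0.39, adjusted p = 0.268). When the TMM factor was removed this difference became 0.33 and was called (adjusted p = 0.0331). The cytotoxic-lineage groups did differ, FlipFlop CD4 cells standing at 1.90 times the B6 CD8 mean (0.90 ± 0.11, adjusted p = 0.000186). Relative to Cd5 in the same library, Nr4a1 was at 0.117 to 0.127 in B6 CD4, 0.183 to 0.215 in FlipFlop CD8, 0.136 to 0.149 in FlipFlop CD4 and 0.0711 to 0.0818 in B6 CD8 (ratios of CPM), so that in both lineages the FlipFlop libraries had the higher ratio.

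Nr4a3 (ENSMUSG00000028341, chr4:48045153-48086447, plus strand) encodes NOR1. Its level was 26.4, 29.7 and 28.8 CPM for B6 CD4 and 34.4, 36.3 and 36.7 CPM for FlipFlop CD8, against 22.9, 25.5 and 28.5 CPM for FlipFlop CD4 and 15.4, 15.6 and 16.7 CPM for B6 CD8. FlipFlop CD8 stood above and B6 CD8 below all other libraries, and B6 CD4 and FlipFlop CD4 overlapped. The CD4 minus CD8 difference was 0.81 ± 0.09 for B6 (adjusted p = 1.79e-05) and -0.48 ± 0.09 in FlipFlop (adjusted p = 0.000997).

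For Nr4a3 the FlipFlop cells were higher within each lineage. FlipFlop CD4 exceeded B6 CD8 by 0.67 ± 0.09 (adjusted p = 0.00041) and FlipFlop CD8 exceeded B6 CD4 by 0.34 ± 0.09 (adjusted p = 0.0153). The second of these calls was lost without FlipFlop CD8 replicate 2 (0.33, adjusted p = 0.0568) and without FlipFlop CD8 replicate 3 (0.32, adjusted p = 0.0595). Nr4a1 exceeded Nr4a3 in every helper-lineage library, at 1.75 to 2.76 times its CPM, and lay at 0.972 to 1.39 times its CPM in the cytotoxic-lineage libraries.

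Nr4a2 (ENSMUSG00000026826, chr2:57106830-57124003, minus strand), which encodes NURR1, was near the filter. It was at 1.16, 1.19 and 0.919 CPM for B6 CD4, at 1.16, 1.44 and 0.994 CPM for B6 CD8, at 1.02, 1.27 and 1.49 CPM for FlipFlop CD4 and at 0.996, 0.628 and 1.11 CPM for FlipFlop CD8, from 19 to 40 reads a library. All groups overlapped. Its CD4 minus CD8 difference was -0.09 for B6 (95% interval -0.48 to 0.30) and 0.32 in FlipFlop (95% interval -0.07 to 0.71, adjusted p = 0.206). Differences of a size within those intervals are not excluded.

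Egr1 (ENSMUSG00000038418) encodes the founding member of the EGR factors, induced through ERK. It was at 103, 108 and 102 CPM for B6 CD4, at 105, 101 and 124 CPM for FlipFlop CD8, at 76.2, 83.6 and 98.3 CPM for FlipFlop CD4 and at 71.2, 67.0 and 67.1 CPM for B6 CD8. Helper-lineage libraries lay above all others, FlipFlop CD4 replicate 3 coming nearest to them. The CD4 minus CD8 difference was 0.61 ± 0.10 for B6 (adjusted p = 0.000481) and -0.36 ± 0.10 in FlipFlop (adjusted p = 0.0139), the latter lost without FlipFlop CD8 replicate 3 (-0.27, adjusted p = 0.0684) and without FlipFlop CD4 replicate 1 (-0.27, adjusted p = 0.0664). The helper-lineage groups were close (FlipFlop CD8 minus B6 CD4 0.07, 95% interval -0.14 to 0.28), and FlipFlop CD4 was 0.32 above B6 CD8 (adjusted p = 0.0647). The latter difference was called in 3 of 12 fits that left out 1 library, those without B6 CD4 replicate 1, FlipFlop CD8 replicate 3 or FlipFlop CD4 replicate 1.

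Egr2 (ENSMUSG00000037868, chr10:67535475-67542188, plus strand) encodes a factor that restrains T cell activation and effector genes. It was at 30.2, 31.9 and 30.3 CPM for B6 CD4, at 36.3, 34.7 and 43.0 CPM for FlipFlop CD8, at 22.9, 21.5 and 29.7 CPM for FlipFlop CD4 and at 17.2, 18.0 and 18.7 CPM for B6 CD8. The 4 groups did not overlap in any pair, and FlipFlop CD4 replicate 3 came nearest to B6 CD4. The CD4 minus CD8 difference was 0.76 ± 0.11 for B6 (adjusted p = 0.000316) and -0.62 ± 0.11 in FlipFlop (adjusted p = 0.00126). FlipFlop CD4 exceeded B6 CD8 by 0.43 ± 0.11 (adjusted p = 0.0384). This call was lost with only the 2 groups in the fit (adjusted p = 0.0656) and in 7 of 12 fits that left out 1 library: any B6 CD8 library, B6 CD4 replicate 2, FlipFlop CD8 replicate 1, or FlipFlop CD4 replicate 1 or 3, with an adjusted p of up to 0.121. FlipFlop CD8 minus B6 CD4 was 0.29 (95% interval 0.04 to 0.54, adjusted p = 0.0735). It was called without FlipFlop CD4 replicate 3 (0.29, adjusted p = 0.0296) and when the TMM factor was removed (0.46, adjusted p = 0.0245).

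Egr3 (ENSMUSG00000033730, chr14:70077203-70082614, plus strand) encodes a close relative of EGR2, and its calls changed with the libraries in the fit. It was at 36.5, 51.4 and 54.9 CPM for B6 CD4, at 53.2, 55.7 and 61.6 CPM for FlipFlop CD8, at 48.3, 46.5 and 52.0 CPM for FlipFlop CD4 and at 37.6, 35.9 and 37.2 CPM for B6 CD8. B6 CD4 replicate 1 lay among the B6 CD8 libraries, whereas the other B6 CD4 libraries lay well above them. The B6 CD4 minus CD8 difference was 0.34 ± 0.12 (adjusted p = 0.0654) with all libraries and 0.52 (adjusted p = 0.000324) without B6 CD4 replicate 1. With the replicate number as a block it was called with all libraries (0.34, adjusted p = 0.0472). In FlipFlop every CD4 library lay below every CD8 library, as for 21.6% of all genes tested, with a difference of -0.21 ± 0.12 (adjusted p = 0.231). Without B6 CD4 replicate 1 the difference was the same and was called (adjusted p = 0.0258). That library enters this comparison only through the spread and the adjustment over all genes. In that fit the calls over all genes rose from 3633 of 11595 to 4411 of 11557.

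B6 CD4 replicate 1 also held the highest Cd5, Cd6 and Nr4a1 of its group, so it was high for some reporters and low for Egr3. In the 4 groups together the pairs that varied most alike were Egr1 with Egr2 (Pearson r = 0.97 of log2 levels) and Cd5 with Cd6 (r = 0.96), over 12 libraries that share depth and group differences. For deviations from the group means the same 2 pairs gave 0.83 and 0.87, and the lowest values were those of Cd6 with Cd69 (-0.77), Cd5 with Egr3 (-0.67) and Nr4a1 with Egr3 (-0.59). These are descriptions over 12 libraries, without a test.

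The lineage effect, the mean of the 2 helper-lineage groups minus the mean of the 2 cytotoxic-lineage groups on the log2 scale, is built from the same libraries as the differences above. It equals 0.5 times the difference between the CD4 minus CD8 difference of B6 and that of FlipFlop. It was called higher for 7 of the 9 genes, where 19.9% of all genes tested were called higher. It was 1.53 ± 0.07 for Nr4a1 (adjusted p = 9.11e-09), 0.99 ± 0.06 for Cd5 (adjusted p = 3.75e-08), 0.69 ± 0.08 for Egr2 (adjusted p = 2.22e-05), 0.65 ± 0.06 for Nr4a3 (adjusted p = 3.07e-06), 0.51 ± 0.06 for Cd6 (adjusted p = 1.43e-05), 0.48 ± 0.07 for Egr1 (adjusted p = 0.000112) and 0.28 ± 0.09 for Egr3 (adjusted p = 0.0251). The Egr3 call was lost in 5 of 12 fits that left out 1 library, those without B6 CD4 replicate 2 or 3, FlipFlop CD8 replicate 3, FlipFlop CD4 replicate 2 or B6 CD8 replicate 2, with an adjusted p of up to 0.0644. For Cd69 it was -0.06 (95% interval -0.26 to 0.14) and for Nr4a2 -0.21 (95% interval -0.48 to 0.07).

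The study's methods asked for a change of more than 5-fold and a P value under 0.05, taken here as the fitted fold and the unadjusted p of limma. By this rule 0 of the 9 genes were called in any comparison, the nearest being Nr4a1 between the CD8 groups with a fitted fold of 4.17. Of all genes tested, 1.57% passed it between CD4 and CD8 cells of B6, 2.21% between those of FlipFlop, 0.448% between the helper-lineage groups, 0.535% between the cytotoxic-lineage groups, 1.47% between the CD4 groups and 3.04% between the CD8 groups. For the lineage, coreceptor and strain effects 1.61%, 0.0172% and 0.379% passed it. With an adjusted p under 0.05 and a fitted change of more than 2-fold, the genes called were Cd5 and Nr4a1 between CD4 and CD8 cells of B6 (7.67% of all genes), Nr4a1 between those of FlipFlop (9.06%). The rule also called Cd5 between the CD4 groups (7.13%), Egr2, Nr4a1 and Nr4a3 between the CD8 groups (11.5%) and Nr4a1 for lineage (7.95%). None of the 9 genes was called between the helper-lineage groups (4.35%), between the cytotoxic-lineage groups (1.93%), or for coreceptor (0.638%) or strain (1.74%). By the ratio of mean CPM, Nr4a1 between the CD4 groups and Cd5 for lineage would lie just past 2-fold, both at 2.02.

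The coreceptor effect, the mean of both CD4 groups minus the mean of both CD8 groups, was called for 2 of the 9 genes, against 1.71% of all genes tested called higher. Cd5 was 0.28 ± 0.06 higher (adjusted p = 0.0124) and Nr4a1 0.37 ± 0.07 higher (adjusted p = 0.0129) in the mean of both CD4 groups. These are averages of called differences of opposite sign, 1.27 in B6 and -0.71 in FlipFlop for Cd5 and 1.90 and -1.16 for Nr4a1, and the CD4 and CD8 libraries of both strains together overlapped. In the same contrast 10 of 16 memory or effector genes were lower and 0 higher (median -0.76), and of 12 regulatory T cell genes 4 were lower and 1 higher (median -0.28), where 3.78% of all genes tested were called lower. Of 10 naive T cell genes 3 were higher and 0 lower (median 0.18). The median over all genes tested was 0.01, and the part of these cell states in the coreceptor effect was not tested. For the other 7 the effect lay between -0.03 (Cd69) and 0.20 (Cd6, adjusted p = 0.0691). Cd6 was called without B6 CD4 replicate 3 (0.23, adjusted p = 0.0353) and without B6 CD8 replicate 1 (0.24, adjusted p = 0.0242). It was also called with all libraries when the replicate number was a block (0.20, adjusted p = 0.0237).

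Between strains Cd5 and Cd6 differed in one direction and the NR4A and EGR genes that were called differed in the other. In the mean of both FlipFlop groups minus the mean of both B6 groups, 5 genes were higher, where 15.8% of all genes tested were called higher: Nr4a1 (0.53 ± 0.07, adjusted p = 0.000474), Nr4a3 (0.50 ± 0.06, adjusted p = 0.000165), Egr2 (0.36 ± 0.08, adjusted p = 0.00703), Egr3 (0.34 ± 0.09, adjusted p = 0.0151) and Egr1 (0.20 ± 0.07, adjusted p = 0.0469). Cd5 (-0.26 ± 0.06, adjusted p = 0.00631) and Cd6 (-0.30 ± 0.06, adjusted p = 0.00304) were lower, where 15.4% of all genes were called lower. In the same contrast 9 of 12 regulatory T cell genes (median 0.94), 6 of 10 follicular helper genes (median 0.44) and 6 of 16 memory or effector genes (median 0.24) were higher and 0 of each were lower. Of 10 naive T cell genes 5 were lower and 0 higher (median -0.15). The part of these cell states in the strain effect was not tested. The Egr1 call held only without FlipFlop CD8 replicate 2 or FlipFlop CD4 replicate 1 and was lost in the other 10 of 12 fits that left out 1 library, with an adjusted p of up to 0.113. It was also lost without the mean-variance trend (adjusted p = 0.0638). The Cd5 call was lost when the TMM factor was removed (-0.15, adjusted p = 0.0763), a change of scale that moved the median strain effect of all genes to 0.10.

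**Figure D3:**
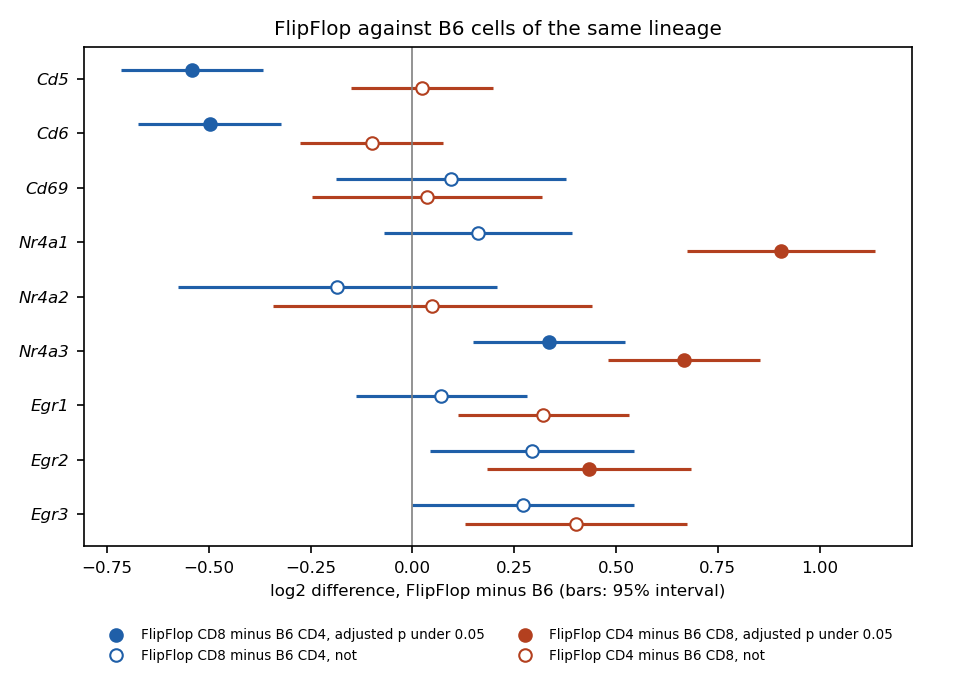
The FlipFlop minus B6 difference of each gene on the log2 scale with its 95% interval, within the helper lineage (blue, FlipFlop CD8 minus B6 CD4) and within the cytotoxic lineage (red, FlipFlop CD4 minus B6 CD8), filled where the adjusted p was under 0.05. Cd5 and Cd6 lie at -0.54 and -0.50 in the helper lineage and near 0 in the cytotoxic lineage, and Nr4a1 and Nr4a3 lie at 0.90 and 0.67 in the cytotoxic lineage.

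Between the helper-lineage groups 2 of the 9 genes were lower in FlipFlop CD8 cells (Cd5 and Cd6, against 14.4% of all genes) and 1 was higher (Nr4a3, against 13.2%). Without the TMM factor 6 were called, with Nr4a1, Egr2 and Egr3 added as higher, while the median difference of all genes moved to 0.15. Between the cytotoxic-lineage groups 3 were higher in FlipFlop CD4 cells (Nr4a1, Nr4a3 and Egr2, against 4.17% of all genes) and 0 were lower (3.75% of all genes). In that second comparison Egr3 was 0.40 ± 0.12 higher with an adjusted p of 0.0745, and it was called without B6 CD4 replicate 1 (adjusted p = 0.00277), without B6 CD4 replicate 3 (adjusted p = 0.0476) and with only the 2 groups in the fit (adjusted p = 0.00851). Without B6 CD4 replicate 1 the calls over all genes rose from 918 to 1566.

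Cells with the same coreceptor protein could also be compared across strains. FlipFlop CD8 cells exceeded B6 CD8 cells in 7 of the 9 genes, where 21.3% of all genes were called higher, with Nr4a1 at 4.27 times (2.06 ± 0.11, adjusted p = 1.98e-08), Nr4a3 at 2.25 times (1.15 ± 0.09), Egr2 at 2.12 times (1.06 ± 0.11) and Cd5 at 1.66 times (0.73 ± 0.08) the B6 CD8 mean. FlipFlop CD4 cells were lower than B6 CD4 cells in 4 genes, where 15.7% of all genes were called lower: Cd5 (-1.25 ± 0.08, adjusted p = 2.64e-07), Nr4a1 (-1.0 ± 0.11, adjusted p = 2.08e-05), Cd6 (-0.81 ± 0.08, adjusted p = 1.20e-05) and Egr1 (-0.28 ± 0.10, adjusted p = 0.0441). The Egr1 call was lost in 9 of 12 fits that left out 1 library (adjusted p up to 0.155) and was kept only without FlipFlop CD8 replicate 2, FlipFlop CD8 replicate 3 or FlipFlop CD4 replicate 3. It was also lost without the TMM factor (adjusted p = 0.0902), with median-of-ratios scaling (0.0550), without the mean-variance trend (0.0621) and with only the 2 groups in the fit (0.0998). Egr2 was -0.33 (adjusted p = 0.0506) and was called without FlipFlop CD8 replicate 3 (adjusted p = 0.0429) and without FlipFlop CD4 replicate 3 (-0.47, adjusted p = 0.00488).

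Between genes, levels were set side by side per kilobase of annotated exon. In B6 CD4 cells Cd5 stood at 105 and Cd6 at 59.0 CPM per kb, followed by Egr1 at 23.3, Nr4a1 at 18.0, Cd69 at 11.0, Egr3 at 10.8, Egr2 at 9.06, Nr4a3 at 4.73 and Nr4a2 at 0.269 CPM per kb. In B6 CD8 cells Nr4a1 was at 4.69 CPM per kb, below Cd69 at 11.8 and Egr3 at 8.37 CPM per kb. The receptors CD5 and CD6 thus headed the order in both groups, and Nr4a1 moved down it in B6 CD8 cells.

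The other genes of TCR signalling were taken from lists and described by their counts for the lineage effect, whose median over all genes tested was -0.03. Of all genes tested, 19.9% were called higher and 19.4% lower. Of 30 NFAT and NF-kB factors and late TCR targets, 20 were higher and 2 lower in the helper lineage (median 0.80). For the strain effect 17 of these 30 were higher in FlipFlop and 0 were lower (median 0.34, against -0.01 over all genes tested), where 15.8% and 15.4% of all genes tested were called. Tnfrsf4, which encodes the costimulatory receptor OX40, was at 56.6 and 106 CPM for B6 CD4 and FlipFlop CD8 against 2.0 and 0.755 CPM for FlipFlop CD4 and B6 CD8 (lineage effect 5.46, adjusted p = 5.1e-13). Il2ra, the alpha chain of the interleukin 2 receptor, was at 92.1 and 232 CPM against 3.52 and 2.64 CPM (5.38, adjusted p = 1.7e-11). Il2ra is also a marker of regulatory T cells. Foxp3 had the same order of group means as Tnfrsf4 and Il2ra (108 and 326 against 1.99 and 0.967 CPM). The part of regulatory T cells in the counts for this list was not tested. The chemokine genes Xcl1 (-2.45, adjusted p = 9.9e-08) and Ccl4 (-1.22, adjusted p = 0.0010) were lower in the helper lineage. Ccl4 was at 3.42 CPM or less in every group mean. It was called only in B6 (FlipFlop CD4 minus CD8 0.20, adjusted p = 0.70).

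Of 42 negative regulators of TCR signalling, 17 were higher and 9 lower (median 0.09). Rgs1, a regulator of G protein signalling, was at 23.8 and 56.9 CPM for B6 CD4 and FlipFlop CD8 against 6.03 and 4.85 CPM for FlipFlop CD4 and B6 CD8 (2.68, adjusted p = 7.7e-09), and Dusp4, a phosphatase of MAP kinases, had a lineage effect of 2.43 (adjusted p = 9.7e-09). Sla2, an adaptor that lowers TCR levels (-0.78, adjusted p = 7.1e-07), and Themis (-0.67, adjusted p = 3.4e-05) were lower.

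Of 22 other immediate early genes, 8 were higher and 3 lower (median 0.26). Dusp1, an immediate early phosphatase of MAP kinases, was at 13.0 and 22.7 CPM for B6 CD4 and FlipFlop CD8 against 7.93 and 4.91 CPM (1.38, adjusted p = 6.5e-07), and Gadd45b was higher by 0.84 (adjusted p = 0.00013). Fosl2, an AP-1 subunit (-0.92, adjusted p = 3.1e-05), and Ier3 (-1.50, adjusted p = 2.3e-06) were lower, Ier3 at 2.45 CPM or less in every group mean. Fos had a lineage effect of 0.63 (adjusted p = 0.065) and Jun one of 0.45 (adjusted p = 0.23); both are general signs of cell handling as well as of signalling. The summed level of the 23 immediate early genes in the table was 2891 to 3169 CPM for B6 CD4, 2717 to 2860 CPM for FlipFlop CD8, 2666 to 2786 CPM for FlipFlop CD4 and 2408 to 2529 CPM for B6 CD8, and the part of cell handling in the reporter differences was not tested. Of 9 heat shock genes, 1 was higher (Hspa5, 0.23, adjusted p = 0.00801) and 4 were lower in the helper lineage (median -0.22), led by Hspe1 (-0.52, adjusted p = 0.000473) and Hsph1 (-0.34, adjusted p = 0.00379). Hspa5 was called in neither strain alone (adjusted p = 0.054 in B6 and 0.065 in FlipFlop). Hsph1 was called only in B6 (FlipFlop CD4 minus CD8 0.28, adjusted p = 0.070).

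Of 25 genes of proximal TCR signalling, 5 were higher and 8 lower (median -0.06), with the costimulatory receptor genes Cd28 at 1.29 (adjusted p = 7.9e-07) and Cd226 at -1.38 (adjusted p = 3.0e-06). The kinase genes Syk (0.51, adjusted p = 0.00288) and Tec (-0.64, adjusted p = 3.76e-05) came next in each direction. Syk was called only in B6 (FlipFlop CD4 minus CD8 -0.31, adjusted p = 0.17). Among 8 cofactors of the EGR and NR4A families, 2 were higher and 2 lower. Nab2, a corepressor of EGR factors, was higher by 0.18 (adjusted p = 0.048) and Rxra, a dimer partner of NR4A proteins, by 0.40 (adjusted p = 0.0031), while Rxrb (-0.18, adjusted p = 0.0061) and Srf (-0.15, adjusted p = 0.030) were lower. Within the strains, Nab2 was called only in B6 (FlipFlop CD4 minus CD8 -0.008, adjusted p = 0.96). Rxra, Rxrb and Srf were called only in FlipFlop (B6 CD4 minus CD8 0.07, -0.09 and -0.08, adjusted p = 0.73, 0.35 and 0.47). Among 9 partners of the surface receptors, 4 were higher and 2 lower: Alcam, the ligand of CD6, was higher by 1.25 (adjusted p = 6.8e-07) and Lcp2, the adaptor SLP-76, by 0.31 (adjusted p = 9.3e-05), and Klf2 (-0.28, adjusted p = 0.027) and Vav1 (-0.19, adjusted p = 0.0027) were lower. Klf2 and Vav1 were called only in FlipFlop (B6 CD4 minus CD8 -0.05 and -0.09, adjusted p = 0.80 and 0.29). S1pr1, the receptor that CD69 opposes, had an effect of -0.14 (adjusted p = 0.16).

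All 12 regulatory T cell genes tested were higher in the helper lineage, with a summed level of 818 to 986 CPM for B6 CD4, 1734 to 1947 CPM for FlipFlop CD8, 175 to 234 CPM for FlipFlop CD4 and 130.5 to 133 CPM for B6 CD8. Foxp3, the defining factor of regulatory T cells, was at 108 ± 18.1, 326 ± 31.1, 1.99 ± 0.355 and 0.967 ± 0.433 CPM in that order. From B6 CD4 to FlipFlop CD8 cells Foxp3 was higher by 1.60 on the log2 scale (adjusted p = 0.00021). In the same comparison Nr4a3 was called higher, Cd5 and Cd6 were called lower and the other 6 reporters were not called. Lrrc32, which encodes the regulatory T cell surface protein GARP, was at 28.3, 74.6, 0.252 and 0.172 CPM (6.03, adjusted p = 2.15e-12).

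Of 10 follicular helper genes, 9 were higher in the helper lineage and 0 were lower, with a summed level of 313 to 439 CPM for B6 CD4, 579 to 639 CPM for FlipFlop CD8, 150 to 186 CPM for FlipFlop CD4 and 152 to 168 CPM for B6 CD8. They were led by the factor genes Maf (4.89, adjusted p = 8.04e-11) and Tox2 (3.74, adjusted p = 4.57e-10). Of 16 memory or effector genes, 7 were higher and 2 lower, and the summed level was 808 to 972 CPM for B6 CD4, 1567 to 2311 CPM for FlipFlop CD8, 1142 to 1191 CPM for FlipFlop CD4 and 1725 to 1866 CPM for B6 CD8, so that B6 CD4 was lowest. S100a4 (3.59, adjusted p = 7.52e-09) and S100a6 (2.48, adjusted p = 1.43e-07) were higher, and the cytotoxic granule gene Nkg7 (-4.61, adjusted p = 1.26e-06) and the factor gene Eomes (-2.73, adjusted p = 9.22e-07) were lower, in the helper lineage. Of 10 naive T cell genes, whose summed level was 5288 to 5496 CPM for FlipFlop CD8 and 6468 to 7534 CPM elsewhere, 0 were higher and 3 lower, among them Lef1 (-0.33, adjusted p = 9.2e-05). Lef1 was called only in FlipFlop (CD4 minus CD8 0.75), with FlipFlop CD8 at 316 CPM. In B6 it was not called, at 469 CPM for CD4 and 437 CPM for CD8 cells (0.10, adjusted p = 0.29). The part of these cell states in the reporter levels was not tested.

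**Figure D4:**
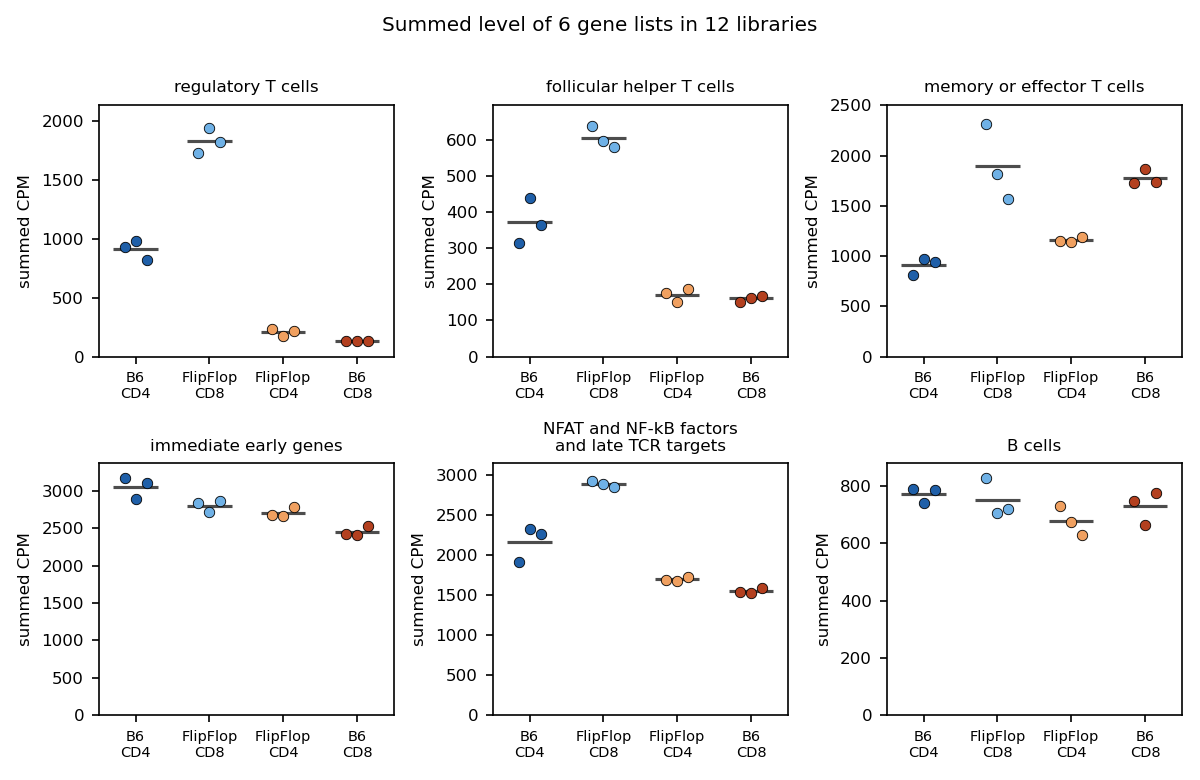
Summed level of 6 gene lists in each library, in CPM from 0 (points, replicates 1 to 3 from left to right; line, mean of 3 libraries). Regulatory T cell genes sum to 1734 to 1947 CPM for FlipFlop CD8 and to no more than 986 CPM elsewhere, whereas B cell genes sum to 631 to 828 CPM in all groups.

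The 10 B cell genes in the table, of which 9 were tested, summed to 743 to 789 CPM for B6 CD4, 705 to 828 CPM for FlipFlop CD8, 631 to 730.0 CPM for FlipFlop CD4 and 664 to 775 CPM for B6 CD8, most of it Ighm (503 to 571 CPM in the group means), while the defining Ms4a1 was at 5.34 to 9.94 CPM. Of the B cell genes 1 was higher and 1 lower in the helper lineage, Cd74 (0.75, adjusted p = 0.0027) and Cd79b (-0.86, adjusted p = 1.9e-05). For the strain effect 6 of the 9 tested were lower in FlipFlop and 0 were higher (median -0.56), where 15.4% of all genes tested were called lower and 15.8% higher. Their part in the strain differences of the reporters was not tested. The 6 myeloid genes summed to 31.0 CPM or less, with 3 higher in the helper lineage, led by Itgam (1.42, adjusted p = 2.4e-06) and Lyz2 (1.09, adjusted p = 0.0038). Lyz2 was called only in FlipFlop (B6 CD4 minus CD8 0.76, adjusted p = 0.145). The 8 natural killer and γδ T cell genes summed to 81.7 to 115 CPM in the helper-lineage groups and 312 to 362 CPM in the cytotoxic-lineage groups, and 2 were higher (Tcrg-C1 at 1.73 and Klrb1c at 1.45) and 3 lower, led by Klrd1 (-3.76, adjusted p = 1.36e-10). Of 4 red cell genes 0 were called for the lineage effect by limma and 4 were lower in FlipFlop, against the same 15.4%. Their part in the reporter levels was not tested.

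The genes whose pattern over the 12 libraries was most like each reporter were found by Pearson r of log2 levels among 8073 genes with a mean of at least 10 CPM. For Nr4a1 they were Ptms (r = 0.995), Tspan32 (0.990) and Psen2 (0.986), and for Cd5 they were Gm15708 (0.986), Tesc (0.982) and Tmub1 (0.978). For Egr2 the first was Dusp1 (0.977), followed by Carmil2 (0.970) and Dlg4 (0.967), and Carmil2 also stood with Scrib and Inpp4a beside Nr4a3 (0.985 to 0.989). For Egr1 they were Polg, Pvr and Zfp362 (0.953 to 0.967), for Egr3 Fam168a, Ncoa3 and Epb41l2 (0.962 to 0.986), and for Cd6 Pkm, Ggt5 and Tecpr1 (0.947 to 0.955). Cd69 (Sept2, Smarcad1 and Map2k1, at most 0.885) and Nr4a2 (Zfp146, Rnf126 and Rnaseh1, at most 0.884) had less close matches. The 12 libraries share group, depth and strain, so r carries the 4 group means.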

How the data were processed

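RNA-seq values came from 12 libraries of sorted lymph node T cells, 3 per group, made with a low-input SMARTer kit and read as paired ends. The deposited values are a signal per gene: the authors divided read counts by library size and by a TMM factor, as the file header names it, and kept 12809 genes. The methods name STAR and mm10, and the submitters' processing notes list Trimmomatic, TopHat and mm10, so the aligner behind the table is not settled, nor is how shared reads were counted. All 12809 gene IDs matched GENCODE M21 (GRCm38). Values were whole multiples of 0.01 read, but only 84.8% to 86.4% of those under 100 CPM were whole reads (tolerance 0.004), so no count test was run. No 2 libraries held identical values.

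Values were taken as log2(CPM + 0.5) for the 11595 genes at 1 CPM or more in at least 3 libraries, and 1214 genes were left out. limma 3.58.1 (R 4.3.3) with a mean-variance trend was fitted to all 12 libraries with 1 mean per group and 8 residual degrees of freedom, without a block. Adjusted p-values are Benjamini-Hochberg values over all genes tested, the threshold was 0.05, and tests were two-sided. The code was tested on simulated data. Intervals and the limit of 3 reads cover counting or replicate error only. In FlipFlop, CD4 and CD8 libraries of the same replicate number deviated together (correlations 0.44, 0.27 and 0.51), so their numbers pair them, a hint taken from the data. Alternatives were other pseudocounts, filters, scalings, variance models, call rules, a replicate block and leaving out each library.

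The 9 genes, the gene lists and the tests were chosen with earlier results of these data known. Named from each list were the 2 genes called in each direction with the largest lineage effect, and, for each reporter, the 3 genes with the highest r. A gene picked by this rule is not reported here. Runx3, Cd3d, Cd3e, Fos, Jun, S1pr1, Ighm and Ms4a1 were named after their values were seen. Promoter windows came from RefSeq (GRCm38.p6).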

Additional observations from a re-analysis of the deposited data

Results flagged for a closer look

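For 7 reporter genes the CD4 minus CD8 difference itself differed between B6 and FlipFlop cells, by the interaction of strain and coreceptor in limma across all genes. The lineage effect, which is 0.5 times that interaction on the log2 scale, was 1.53 for Nr4a1, 0.99 for Cd5, 0.69 for Egr2, 0.65 for Nr4a3, 0.51 for Cd6, 0.48 for Egr1 and 0.28 for Egr3, all with an adjusted p under 0.05, where 19.9% of all genes tested were called higher. The Egr3 call was lost when 1 of 5 libraries was left out (B6 CD4 replicate 2 or 3, FlipFlop CD8 replicate 3, FlipFlop CD4 replicate 2 or B6 CD8 replicate 2), with an adjusted p of up to 0.0644.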

How the results depend on the processing

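Of 648 differences recomputed under other settings for the 9 genes and 9 comparisons, 630 kept their direction and their side of the threshold, and of 972 with 1 library left out 897 did. By the 5-fold rule 0 genes were called in each comparison. With a fitted 2-fold minimum, 2 were called between CD4 and CD8 cells of B6, 1 between those of FlipFlop, 0 between the helper-lineage groups, 0 between the cytotoxic-lineage groups, 1 between the CD4 groups, 3 between the CD8 groups, 1 for lineage and 0 for coreceptor or strain, since the rule asks for a larger change. Without the TMM factor 6 genes were called between the helper-lineage groups, with Nr4a1 (0.33), Egr2 (0.46) and Egr3 (0.44) added, levels moved by up to 10.8%, and the median of all genes moved to 0.15 there and to 0.20 between the CD8 groups. The cause was not tested.

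Leaving out 1 library gave 6 to 7 calls between CD4 and CD8 cells of B6, 5 to 7 in FlipFlop, 2 to 4 between the helper-lineage groups, 2 to 5 between the cytotoxic-lineage groups (5 without B6 CD4 replicate 1), 3 to 5 between the CD4 groups, 6 to 7 between the CD8 groups, 6 to 7 for lineage, 2 to 3 for coreceptor and 6 to 7 for strain. Over all genes, calls between the cytotoxic-lineage groups ranged from 490 (without B6 CD8 replicate 2) to 1566 (without B6 CD4 replicate 1). The main fit gave 918. The replicate block gave 7 calls in B6, 6 in FlipFlop, 7 for lineage and 3 for coreceptor, adding Egr3 in B6 (0.34, adjusted p = 0.0472) and Cd6 for the coreceptor effect (0.20, adjusted p = 0.0237), and it changed no other call. Over all 11595 genes the block raised the calls from 2944 to 3475 in B6 and from 3633 to 4221 in FlipFlop. For lineage they rose from 4554 to 5162 and for coreceptor from 636 to 954. In B6 the libraries of one number correlated at 0.18, 0.089 and 0.35, and those of unlike number at -0.35 to 0.16. Whether the numbers pair the B6 libraries is therefore not settled.

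The differences that changed sign were not called in any of these fits. Without the TMM factor they were Cd69 in FlipFlop (-0.14), the Cd69 lineage effect (0.061) and the Nr4a2 strain effect (0.0074). With 1 library left out, Cd69 ranged from -0.27 to 0.023 in B6, from -0.034 to 0.077 in FlipFlop (-0.026 without FlipFlop CD4 replicate 3), from -0.14 to 0.15 between the cytotoxic-lineage groups (-0.022 without FlipFlop CD4 replicate 3), from -0.17 to 0.12 between the CD8 groups (-0.018 and -0.038 without FlipFlop CD8 replicate 2 or 3), from -0.12 to 0.027 for the coreceptor effect (0.0029 without B6 CD8 replicate 2) and from -0.024 to 0.12 for the strain effect. Nr4a2 ranged from -0.18 to 0.011 in B6, from -0.044 to 0.15 between the cytotoxic-lineage groups (-0.039 without B6 CD8 replicate 3) and from -0.12 to 0.0093 for the strain effect. Egr3 ranged from -0.12 to 0.17 between the CD4 groups, Cd5 from -0.020 to 0.071 between the cytotoxic-lineage groups and Egr1 from -0.019 to 0.13 between the helper-lineage groups. Nr4a2, at 19 to 40 reads per library, had the fewest reads of the 9 genes.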
